A study of Mus musculus with 6 samples.

Results

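The genes described here are the itaconate enzyme gene Acod1, the inducible nitric oxide synthase gene Nos2 and the arginine genes Arg1, Arg2, Slc7a1, Slc7a2, Ass1 and Asl. They are 8 of the 54838 genes counted, matched by symbol to Ensembl identifiers through GENCODE M21. The members other than Slc7a2 were chosen for their function, and Slc7a2 was picked because it was higher in the knockout in these same libraries, so its values are given as a description with no test. RNA was sequenced from neutrophils that had been sorted by flow cytometry out of infected mouse corneas. The infection was with Pseudomonas aeruginosa PAO1, a widely used bacterial strain, and had lasted 24 h. The donors of the cells were IL1a -/- mice (here Il1a KO, lacking the gene of the inflammatory cytokine IL-1 alpha) or wild-type mice (WT), with 3 libraries per genotype, and both groups were infected. The sources used here do not give the mouse strain, the age, the sorting gate or whether cells of several mice were pooled, so p-values measure only the spread between these libraries.

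Activated myeloid cells use Acod1 to divert cis-aconitate from the citric acid cycle to itaconate, which blocks succinate dehydrogenase and is toxic to some bacteria. Arginine is contested between enzymes: Nos2 turns it into nitric oxide and citrulline, while the arginases, cytosolic Arg1 and mitochondrial Arg2, turn it into ornithine and urea. The cationic amino acid transporters CAT-1 (Slc7a1) and CAT-2 (Slc7a2) bring arginine into the cell, and argininosuccinate synthase (Ass1) and argininosuccinate lyase (Asl) rebuild it from citrulline.

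The libraries held 22855676 to 33626008 gene counts. Il1a was at 2.89, 5.37 and 5.15 CPM (counts scaled to a common library size) in Il1a KO and at 5116, 6195 and 8776 CPM in WT, so each library carried the Il1a level of its label. Il1a KO replicate 2 lay at 67.3 on principal component 1, far from the remaining libraries (-32.9 to 2.1). The neutrophil markers S100a9 (12571 to 14298 CPM in Il1a KO and 12946 to 15660 CPM in WT) and S100a8 were abundant throughout. Of 11 lymphocyte markers, 5 (Cd3e, Cd8a, Cd4, Ncr1 and Nkg7) had 0 counts in every library, while Cd3d had 15 to 23 counts in Il1a KO and 28 to 43 in WT, and Trac 7 to 18 counts in Il1a KO and 5 to 12 in WT. Across 11924 genes with enough counts to test, 12 passed the threshold (adjusted p under 0.05), which is 0.101% of the tested genes.

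The promoter sequences available for these genes, from RefSeq (GRCm38.p6), are those of Acod1, Ass1 and Slc7a1, and they are shown because they include the members with the highest and the lowest transcript level per length. Each is the 250 bases before the RefSeq start, 5′ to 3′ on the strand of the gene, at chr14:103046762-103047011 (plus strand), chr2:31470020-31470269 (plus strand) and chr5:148399905-148400154 (minus strand). Capitals mark matches on either strand to the core promoter element TATAAA, to the GC box GGGCGG or to the AP-1 motif TGANTCA.
Acod1: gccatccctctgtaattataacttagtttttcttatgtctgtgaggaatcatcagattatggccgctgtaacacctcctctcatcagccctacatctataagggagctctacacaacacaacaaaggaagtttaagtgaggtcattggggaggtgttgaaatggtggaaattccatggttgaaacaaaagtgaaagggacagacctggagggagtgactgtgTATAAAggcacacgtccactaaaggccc
Ass1: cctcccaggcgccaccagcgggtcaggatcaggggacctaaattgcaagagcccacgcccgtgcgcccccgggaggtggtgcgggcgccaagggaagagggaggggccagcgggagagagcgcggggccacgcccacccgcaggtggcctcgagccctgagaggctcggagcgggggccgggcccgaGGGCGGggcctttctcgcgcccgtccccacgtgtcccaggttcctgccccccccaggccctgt
Slc7a1: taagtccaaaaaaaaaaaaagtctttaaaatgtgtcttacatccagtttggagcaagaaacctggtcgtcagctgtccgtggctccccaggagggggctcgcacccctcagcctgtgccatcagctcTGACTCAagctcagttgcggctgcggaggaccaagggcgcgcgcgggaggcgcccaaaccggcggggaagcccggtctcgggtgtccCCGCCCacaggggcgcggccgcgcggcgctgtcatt
The Acod1 window held a TATAAA from position -28 to -23 relative to the start, a match that 12.4% of 32841 promoter windows of this length hold. The Ass1 window held a GGGCGG, and the Slc7a1 window held its reverse complement and a TGACTCA, letters found in 32.7% (GC box) and 6.75% (AP-1) of windows. The motif TTNNGNAA (C/EBP), which 36.9% of windows hold, had no match in these 3. The bases were 44.4% G or C in the Acod1 window, 75.6% in the Ass1 window and 62.4% in the Slc7a1 window, against a median of 52.4% over all windows. GENCODE M21 places the start of Acod1 35 bases and that of Ass1 63 bases further upstream, and that of Slc7a1 at the same base. These matches describe letters and no binding was measured.

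Acod1 transcript was the most abundant of the set and was at 9594 ± 1029 CPM in Il1a KO and 9361 ± 897 CPM in WT, Nos2 was higher in every Il1a KO library than in any WT library without passing the test, and Arg2 exceeded Arg1 in all 6 libraries. None of the 7 members chosen by function was called: by edgeR's quasi-likelihood fit 0 of 7 had an adjusted p under 0.05, and the same count came from DESeq2 and from limma-voom. The background was 0.101% of all tested genes, of which 0.0755% were called higher and 0.0252% lower in Il1a KO. At an unadjusted p under 0.05 there were 3 of 7 (Nos2, Arg1 and Ass1, all higher in Il1a KO), against 5.99% of all tested genes. Groups were free of overlap in 3 of 7 members, against 11.6% of all tested genes. Of these, Nos2 and Ass1 were higher in Il1a KO (2 of 7, against 6.12% of tested genes) and Arg2 was lower (1 of 7, against 5.48%). All 8 members passed the filter on low counts, but Ass1 did so only through the Il1a KO libraries (3 of 3 at or above 0.323 CPM, against 2 of 3 in WT), which favours a difference. Of the 6 members other than Ass1 and Slc7a2, 2 had an unadjusted p under 0.05, and the groups were apart for 1 higher and 1 lower. Because the members were chosen with results of these libraries known, the counts describe the set and are not a test of it.

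**Figure D1:**
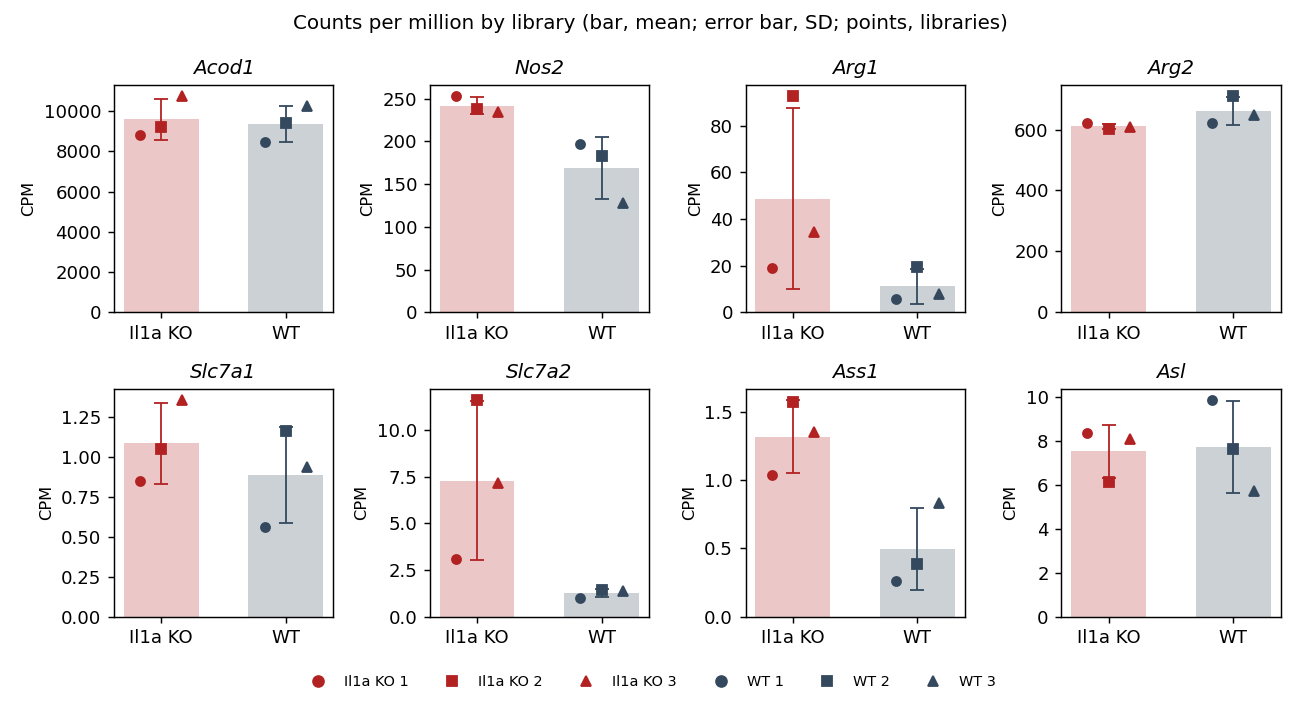
CPM of the 8 genes (vertical axes, each from 0) in Il1a KO and WT libraries; bars are means, error bars SD (n = 3 each) and points single libraries. Points do not overlap between the genotypes for Nos2, Slc7a2 and Ass1 (higher in Il1a KO) and for Arg2 (lower), whereas those of Acod1 lie between 8814 and 10761 CPM in Il1a KO and between 8450 and 10243 CPM in WT.

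Acod1 (ENSMUSG00000022126, GRCm38 chromosome 14, 103046977 to 103056573, plus strand) was at 8814, 9209 and 10761 CPM in Il1a KO and at 8450, 9392 and 10243 CPM in WT. The groups overlapped, with replicate 1 lowest and replicate 3 highest in both, although WT replicate 1 was the lowest and Il1a KO replicate 3 the highest of all 6 libraries. The means were 9594 ± 1029 CPM in Il1a KO and 9361 ± 897 CPM in WT (SD, n = 3 each). The log2 fold change of Acod1 was 0.04 (SE 0.12, edgeR adjusted p = 0.99), with a 95% interval from -0.23 to 0.30. The sign of so small a value turned when single libraries were left out (-0.06 to 0.10).

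Nos2 (ENSMUSG00000020826, chromosome 11, 78920787 to 78960254, plus strand) was at 253, 237 and 234 CPM in Il1a KO, against 196, 182 and 128 CPM in WT. The Il1a KO libraries lay close together and above every WT library, and WT replicate 3 was the lowest of the 6. The means were 242 ± 10 CPM in Il1a KO and 169 ± 36 CPM in WT (SD, n = 3 each). The log2 fold change was 0.52 (SE 0.16, 95% interval 0.17 to 0.86), and it did not pass over all genes (edgeR adjusted p = 0.58). With a library left out it lay between 0.35, without WT replicate 3, and 0.62, without WT replicate 1. DESeq2 gave a log2 fold change of 0.51, and over all the alternatives run the adjusted p of Nos2 was 0.069 to 1.

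Arg2, the mitochondrial arginase gene (ENSMUSG00000021125, chromosome 12, 79130777 to 79156301, plus strand), was at 620, 603 and 607 CPM in Il1a KO, against 622, 711 and 649 CPM in WT. The groups did not overlap, but the nearest libraries, Il1a KO replicate 1 and WT replicate 1, were almost level. The log2 fold change of -0.11 (SE 0.10, 95% interval -0.34 to 0.12) did not pass (edgeR adjusted p = 0.94). The level of Arg2 depends on how reads are counted, because 401 of its 1428 exon bases are shared with Vti1b and Gm48780 on the opposite strand and the kit does not mark strand. Reads there are left out of the unstranded count, while the sum of the strand columns gives each such read to both genes. That sum was 35713, 35170 and 25023 counts in Il1a KO and 30089, 40100 and 36458 in WT, or 1.80 to 1.82 times the unstranded count in every library. The fold change from the sum was -0.12.

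Arg1, the cytosolic arginase gene (ENSMUSG00000019987, chromosome 10, 24915221 to 24927484, minus strand), had 604, 3008 and 787 counts in Il1a KO and 157, 606 and 246 counts in WT. These are 18.99, 92.8 and 34.4 CPM in Il1a KO, against 5.88, 19.5 and 7.91 CPM in WT. Replicate 2 was highest in both genotypes, and the groups overlapped because WT replicate 2 lay just above Il1a KO replicate 1. Arg1 averaged 48.7 ± 38.9 CPM in Il1a KO and 11.1 ± 7.4 CPM in WT (SD, n = 3 each). Its log2 fold change of 2.13 (SE 0.74, 95% interval 0.32 to 3.94) did not pass (edgeR adjusted p = 0.78). Without Il1a KO replicate 2 the value was 1.25 and without WT replicate 2 it was 2.82. Without a filter on low counts Arg1 was called, with a log2 fold change of 2.11 and an adjusted p of 1.7e-26, while over the alternatives run the adjusted p ranged from that value to 1.

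**Figure D2:**
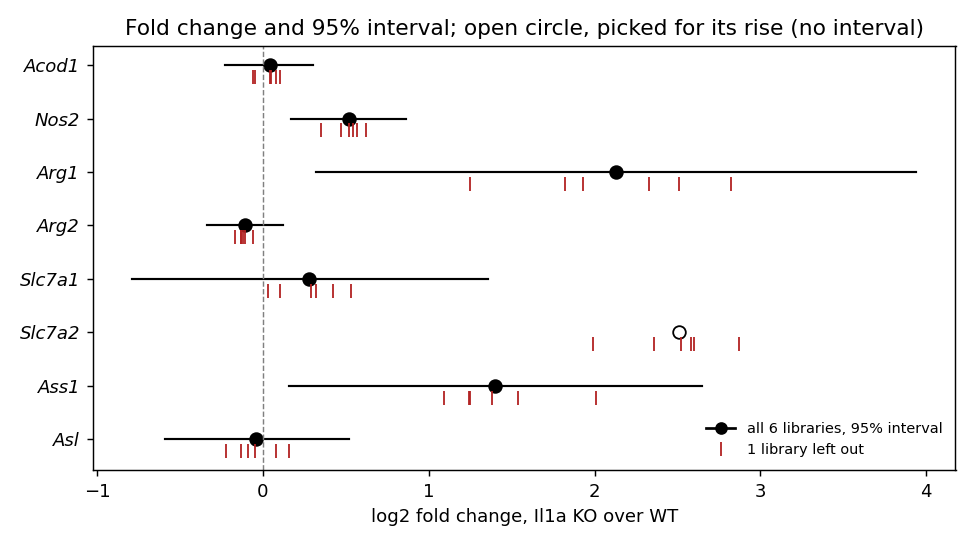
Log2 fold change of each gene, Il1a KO over WT (horizontal axis), from all 6 libraries with its 95% interval (black), and with each library left out in turn (red ticks). The open circle, drawn without an interval, marks Slc7a2, which was picked for its rise; Arg1 has the widest interval, 0.32 to 3.94, and Acod1 and Arg2 lie near 0.

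Slc7a2, the gene of the transporter CAT-2 (ENSMUSG00000031596, chromosome 8, 40862396 to 40922308, plus strand), had 98, 377 and 164 counts in Il1a KO and 27, 44 and 43 counts in WT. In CPM these are 3.08, 11.6 and 7.16 in Il1a KO, against 1.01, 1.42 and 1.38 in WT. The lowest Il1a KO library was above the highest WT library, and the spread among the Il1a KO libraries was far wider. The log2 fold change was 2.51. Without Il1a KO replicate 2 it was 1.99 and without Il1a KO replicate 1 it was 2.87. CAT-2 is known in splice forms of low and high arginine affinity, which a count per gene does not separate. Slc7a1, the gene of CAT-1 (ENSMUSG00000041313, chromosome 5, 148327410 to 148399904, minus strand), had 27, 34 and 31 counts in Il1a KO and 15, 36 and 29 in WT. It was thus near 1 CPM in all libraries, with overlapping groups and a log2 fold change of 0.28 (95% interval -0.79 to 1.36, edgeR adjusted p = 0.97).

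In the step that rebuilds arginine from citrulline, Ass1 (ENSMUSG00000076441, chromosome 2, 31470207 to 31520672, plus strand) had 33, 51 and 31 counts in Il1a KO, against 7, 12 and 26 counts in WT. In CPM these were 1.04, 1.57 and 1.35 in Il1a KO and 0.26, 0.39 and 0.84 in WT, so the groups did not overlap but rest on few reads. The log2 fold change was 1.40 (SE 0.56, 95% interval 0.16 to 2.65) and did not pass (edgeR adjusted p = 0.79). It was 2.01 without WT replicate 3, the WT library with the most Ass1. Ass1 shares a chromosome with Il1a but lies 97.8 Mb from it. Asl (ENSMUSG00000025533, chromosome 5, 130011258 to 130029247, minus strand) was at 8.33, 6.11 and 8.08 CPM in Il1a KO and at 9.84, 7.60 and 5.69 CPM in WT. Its groups overlapped, with a log2 fold change of -0.04 (95% interval -0.59 to 0.52, edgeR adjusted p = 0.99), which was 0.01 when scaled by library size alone.

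Levels of different genes were compared per kb of exon that no other gene model shares. In CPM per kb the order was Acod1 (3658 ± 392 in Il1a KO and 3569 ± 342 in WT), Arg2 (594 ± 9 in Il1a KO and 643 ± 45 in WT), Nos2 (54.7 ± 2.3 in Il1a KO and 38.3 ± 8.1 in WT) and Arg1 (21.9 ± 17.5 in Il1a KO and 4.98 ± 3.30 in WT). Asl followed at 1.55 ± 0.25 in Il1a KO and 1.60 ± 0.43 in WT, Slc7a2 at 0.86 ± 0.50 in Il1a KO and 0.15 ± 0.03 in WT, Ass1 at 0.55 ± 0.11 in Il1a KO and 0.20 ± 0.13 in WT, and Slc7a1 at 0.094 ± 0.022 in Il1a KO and 0.077 ± 0.026 in WT (SD, n = 3 each). The library ranges of Acod1 and Arg2, of Arg2 and Nos2, and of Arg1 and Asl did not meet. Those of Nos2 and Arg1 did, because Arg1 in Il1a KO replicate 2 (41.6 CPM per kb) exceeded Nos2 in WT replicate 3 (29.1). The ranges of Asl and Slc7a2, of Slc7a2 and Ass1, and of Ass1 and Slc7a1 also overlapped. The ratio of Arg2 to Arg1 per kb was 70.9, 14.1 and 38.3 in Il1a KO, against 230, 79.1 and 178 in WT. It was lower in every Il1a KO library than in any WT library, a quantity chosen after its values were seen.

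**Figure D3:**
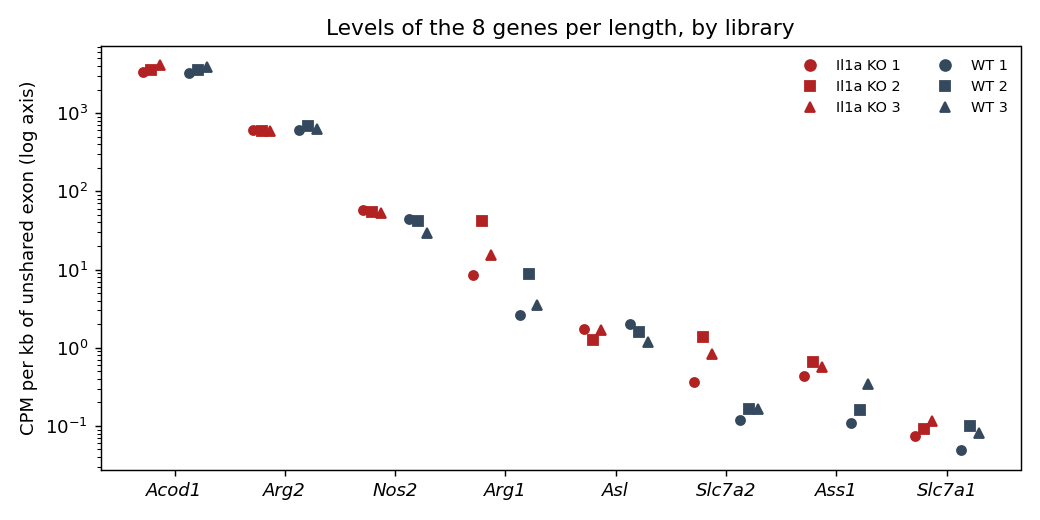
CPM per kb of unshared exon (log axis) for the 8 genes, ordered by their mean over the 6 libraries, with Il1a KO points left of WT points. Mean levels run from 3658 CPM per kb in Il1a KO and 3569 in WT for Acod1 down to 0.094 in Il1a KO and 0.077 in WT for Slc7a1, and the arginase genes differ by 14.1 to 230 times within a library.

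Arg1 and Slc7a2 varied most over the 6 libraries, by 3.96 and 3.40 on the log2 CPM scale, against 0.35 for Acod1 and 0.24 for Arg2. Among 5331 genes that averaged 5 CPM or more, the profile most like that of Arg1 was that of F13a1, with a root mean square difference of 0.39 in log2 CPM over 6 libraries after each gene was centred on its mean. Msr1 (0.51) and Procr (0.57) followed. For Slc7a2 the nearest were Fn1 (0.32), Msr1 (0.35) and F13a1 (0.45). F13a1, the gene of a coagulation factor subunit, was at 8.43, 30.2 and 12.3 CPM in Il1a KO and at 4.23, 6.37 and 3.25 CPM in WT. Msr1, a scavenger receptor gene, was at 5.31, 16.7 and 9.74 CPM in Il1a KO and at 1.46, 3.09 and 3.80 CPM in WT. In F13a1, Msr1, Arg1, Slc7a2 and Ass1 alike, Il1a KO replicate 2 was the highest library and Il1a KO replicate 1 the lowest of its genotype. F13a1 and Msr1 were found by their likeness to Arg1 and Slc7a2, so their shared order of libraries follows from that search. Slc7a2 was picked for its rise, so genes near its profile are higher in Il1a KO too.

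F13a1 and Msr1, found by that search, are on the list of monocyte and macrophage markers, so the values of that list are given here beside those of the members. Of its 18 genes, 16 were tested and 0 were called by edgeR; 9 were higher and 1 was lower in Il1a KO at an unadjusted p under 0.05 (5.99% of all tested genes, either direction). Without overlap between the groups, 7 were higher and 2 lower, against 6.12% higher and 5.48% lower over all tested genes. The 9 and the 7 include F13a1 and Msr1, found by their likeness to Arg1 and Slc7a2. These counts therefore describe the list and are not a test of it. Both counts also include Ms4a7, at 0.47, 1.26 and 0.70 CPM in Il1a KO and 0.15, 0.32 and 0.32 CPM in WT. Its WT libraries all lay under the 0.323 CPM of the filter on low counts, which favours a rise. The median log2 fold change of the list was 1.67, against 0.00 over all tested genes. Its summed level was 718 to 752 CPM in Il1a KO and 595 to 643 CPM in WT, most of it from Cd68, Csf1r and Adgre1. The log2 fold changes of these 3 were 0.17, 0.21 and 0.22 in that order (edgeR adjusted p = 0.93, 0.90 and 0.94). Of them only Csf1r was higher without overlap. Without these 3, the sum was 64.0, 137 and 113 CPM in Il1a KO, against 66.1, 63.2 and 64.2 CPM in WT. No marker of the list was at 0 in all libraries, and C1qb, a complement gene, was at 2.11, 8.29 and 4.02 CPM in Il1a KO and at 0.97, 1.26 and 0.74 CPM in WT. The 2 markers lower without overlap were Lyve1 and Ly6c2. Lyve1 was at 0.19, 0.12 and 0.35 CPM in Il1a KO, against 4.49, 1.06 and 0.68 CPM in WT. Its log2 fold change was -3.24 (edgeR adjusted p = 0.38), and that of Ly6c2 was -0.30 (edgeR adjusted p = 0.87). Lyve1 in Il1a KO replicates 1 and 2 lay under the 0.323 CPM of the filter, while every WT library lay above it, which favours a fall. The part of monocyte and macrophage transcripts in the values of Arg1, Slc7a2 and Ass1 was not tested. In bulk libraries more cells of a type and more RNA per cell cannot be told apart.

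Markers of the corneal epithelium varied between libraries in another way. Their summed level was 29.5, 138 and 40.2 CPM in Il1a KO, against 23.1, 164 and 104 CPM in WT, so the groups overlapped. Within each genotype replicate 2 was highest and replicate 1 lowest, the same order as for Arg1. Krt14, a basal keratin gene, was at 14.8, 64.0 and 23.6 CPM in Il1a KO and at 8.76, 85.6 and 31.2 CPM in WT. The part of epithelial transcripts in the values of Arg1 was not tested. The other marker lists had overlapping sums: 42.9 to 81.9 CPM in Il1a KO and 57.5 to 79.8 CPM in WT for stroma and endothelium, 6.228 to 10.53 CPM in Il1a KO and 9.745 to 12.85 CPM in WT for dendritic and mast cells (Siglech, Cma1 and Fcer1a at 0), and 1.07 to 1.76 CPM in Il1a KO and 1.54 to 1.80 CPM in WT for lymphocytes. The 14 neutrophil markers summed to 49537 to 53223 CPM in Il1a KO and 52318 to 56887 CPM in WT. Of these 4 lists, edgeR called 0 genes. An unadjusted p under 0.05 was found for 2 of 14 tested neutrophil markers and 1 of 9 tested stromal markers, all lower in Il1a KO. It was found for 0 of 3 tested dendritic and mast cell markers and 0 of 2 tested lymphocyte markers. The stromal marker with that p lay under the 0.323 CPM of the filter on low counts in every Il1a KO library, which favours a fall. The share over all tested genes, in either direction, was 5.99%.

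**Figure D4:**
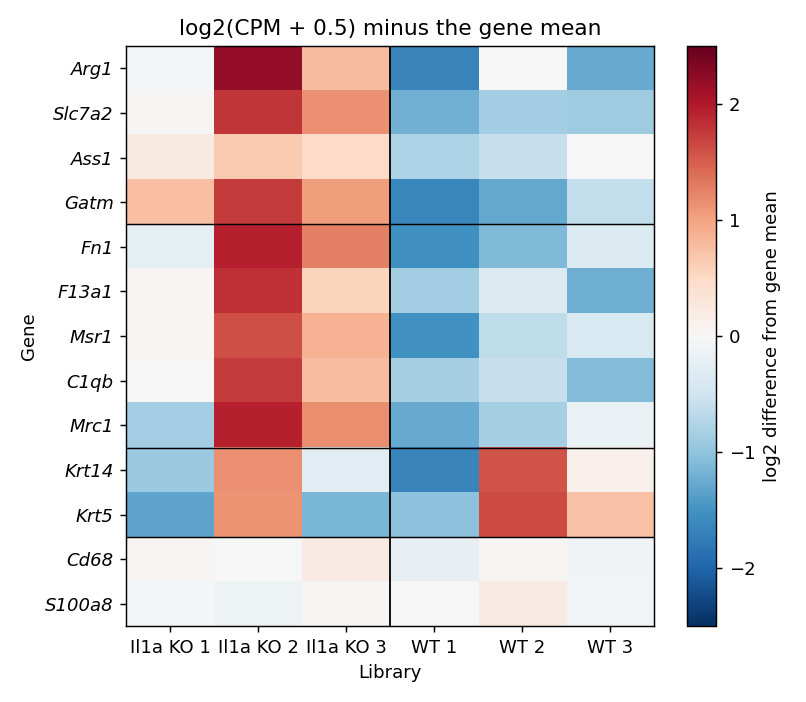
Log2(CPM + 0.5) of each gene in each library minus its mean over the 6 libraries (colour), for members and Gatm (top block), macrophage markers and Fn1, epithelial keratin genes, and Cd68 and S100a8 (bottom block); the rows were chosen after their values were seen. Il1a KO replicate 2 is the highest library for Arg1 (92.8 CPM), Slc7a2 (11.6 CPM), Fn1, F13a1, Msr1, C1qb and Mrc1, whereas Krt14 (85.6 CPM) and Krt5 are highest in WT replicate 2. Lyve1 and Ly6c2, markers of the macrophage list that were lower in Il1a KO, are not drawn.

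The other genes of these pathways were read from 5 lists of 99 genes, of which 78 were tested. None was called by edgeR (0 of 78), and 4 had an unadjusted p under 0.05, a share near the 5.99% of all tested genes. By limma-voom 0 were called, by DESeq2 1 (Gatm), and without a filter on low counts 2 (Gatm and Slc6a14). The list of other arginine carriers also holds genes of neutral amino acid carriers, Slc7a5 and Slc7a8. Of its 8 tested genes, 0 were called and 0 had an unadjusted p under 0.05, with a median log2 fold change of 0.28. The most abundant was Slc3a2, the heavy chain shared by several amino acid transporters, at 554, 538 and 612 CPM in Il1a KO and at 464, 585 and 686 CPM in WT. Slc7a8, a light chain gene, was at 5.56, 8.29 and 9.56 CPM in Il1a KO and at 3.48, 6.86 and 6.56 CPM in WT, and Slc7a5, another, at 27.7, 17.1 and 17.5 CPM in Il1a KO and at 36.9, 27.6 and 17.1 CPM in WT. Slc6a14, which encodes a transporter of neutral and cationic amino acids, had 955 counts in Il1a KO replicate 2, against 33 and 15 in the other Il1a KO libraries and 35, 128 and 74 in WT. Its log2 fold change of 2.00 (edgeR adjusted p = 0.94) was -1.62 without that library and 0.37 by limma-voom. Without a filter on low counts it was 1.98, with an adjusted p of 1e-08.

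For nitric oxide synthesis and its cofactors, 0 of 12 tested genes were called and 0 had an unadjusted p under 0.05 (median log2 fold change 0.08). Gch1, the entry enzyme for the cofactor tetrahydrobiopterin, was at 210, 198 and 227 CPM in Il1a KO and at 192, 199 and 189 CPM in WT, and its groups overlapped. Pcbd1, a cofactor recycling gene, was at 3.18, 2.68 and 3.76 CPM in Il1a KO, against 2.47, 1.87 and 1.74 CPM in WT, without overlap (log2 fold change 0.66, edgeR adjusted p = 0.86). It was the 1 gene of the 12 higher without overlap, against 6.12% of all tested genes. Calm2, a calmodulin gene (log2 fold change -0.36), and Ddah2, whose product degrades methylated arginines (-0.68), had overlapping groups. The other synthase genes were not tested: Nos1 had 0 counts in every library and Nos3 stayed under 1 CPM.

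Downstream of arginase, 0 of 14 tested genes of ornithine, polyamine, proline and urea cycle metabolism were called, with a median log2 fold change of -0.17. At an unadjusted p under 0.05, 2 were higher and 1 was lower in Il1a KO, against 5.99% of all tested genes in either direction. Groups without overlap were also 2 higher and 1 lower, against 6.12% higher and 5.48% lower over all tested genes. In both counts the 2 higher genes were Gatm and Sms. Gatm passed the filter on low counts only through the Il1a KO libraries, which favours a rise. Oat, which turns ornithine towards proline and glutamate, was at 48.9, 36.6 and 33.2 CPM in Il1a KO, against 61.5, 60.5 and 53.3 CPM in WT. All its Il1a KO libraries lay below all WT libraries (log2 fold change -0.56, edgeR adjusted p = 0.57). Sms, the spermine synthase gene, was at 1.67, 3.39 and 3.45 CPM in Il1a KO, against 1.39, 1.51 and 1.00 CPM in WT (log2 fold change 1.12, edgeR adjusted p = 0.73). Odc1, the ornithine decarboxylase gene, was at 138, 229 and 207 CPM in Il1a KO and at 159, 189 and 242 CPM in WT.

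Gatm, whose enzyme uses arginine and glycine in the first step of creatine synthesis, had 98, 216 and 89 counts in Il1a KO, against 5, 12 and 28 counts in WT. In CPM it was at 3.08, 6.66 and 3.89 in Il1a KO and at 0.19, 0.39 and 0.90 in WT, and the groups were far apart. Its log2 fold change of 3.18 (SE 0.55, 95% interval 1.97 to 4.40) did not pass (edgeR adjusted p = 0.090). It was called by DESeq2 (adjusted p = 3.9e-06) and without a filter on low counts (3.0e-09), and over the alternatives run the adjusted p was at most 0.48. The fold change was 2.79 to 3.95 with a library left out. Gatm lies on chromosome 2, 6.7 Mb from Il1a, and 10 of the 12 called genes lie within 15 Mb of Il1a, a window that holds 179 of the 11924 tested genes. The 12 called genes include Il1a itself, the gene that the knockout lacks. Like Ass1, Gatm passed the filter only through the Il1a KO libraries. The part of that chromosome position in the value of Gatm was not tested.

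For itaconate and the citric acid cycle around Acod1, 0 of 23 tested genes were called and 0 had an unadjusted p under 0.05, with 7 fold changes above 0, 16 below it and a median of -0.10 on the log2 scale. The succinate dehydrogenase subunit genes Sdhd (47.1, 47.2 and 34.3 CPM in Il1a KO, against 52.0, 62.0 and 49.6 CPM in WT) and Sdhc (9.46, 10.3 and 8.74 CPM in Il1a KO, against 11.3, 12.6 and 11.4 CPM in WT) were lower without overlap and did not pass. Idh3g, an isocitrate dehydrogenase subunit gene, was higher without overlap, at 11.4, 10.9 and 10.4 CPM in Il1a KO, against 9.73, 9.59 and 7.11 CPM in WT. These 3 were the only genes of the 23 without overlap, 1 higher and 2 lower. Over all tested genes the shares were 6.12% higher and 5.48% lower. Rab32, a GTPase gene linked to the delivery of itaconate to bacteria-containing vacuoles, was at 430, 295 and 322 CPM in Il1a KO and at 321, 346 and 355 CPM in WT.

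Among transcription factors, receptors and signalling or regulatory genes known to act on Acod1, Nos2 or Arg1, 0 of 21 tested genes were called. Of these 21, 1 had an unadjusted p under 0.05 (median log2 fold change 0.00). That gene was Il4ra, a receptor chain for the cytokines that induce Arg1 in macrophages, at 646, 650 and 590 CPM in Il1a KO, against 751, 729 and 738 CPM in WT. Its groups did not overlap (log2 fold change -0.23, 95% interval -0.46 to -0.01, edgeR adjusted p = 0.82). Stat3 was likewise lower without overlap, at 701, 772 and 664 CPM in Il1a KO and at 851, 804 and 813 CPM in WT. Irf8, an interferon-related factor gene, had 16, 39 and 26 counts in Il1a KO and 2, 12 and 14 in WT, and it too passed the filter only through Il1a KO. Of the 21 tested genes, 1 was higher (Irf8) and 2 were lower without overlap. The shares over all tested genes were 6.12% higher and 5.48% lower. Cebpb, a factor gene of inducible myeloid transcription, was at 3534, 3557 and 3586 CPM in Il1a KO and at 3366, 4102 and 3759 CPM in WT, and Nfkb1 at 437, 656 and 752 CPM in Il1a KO and at 472, 505 and 653 CPM in WT. Slc3a2, Gch1, Odc1, Rab32, Cebpb, Nfkb1, C1qb, Ms4a7, Lyve1 and Ly6c2 were named after their values were seen.

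**Figure D5:**
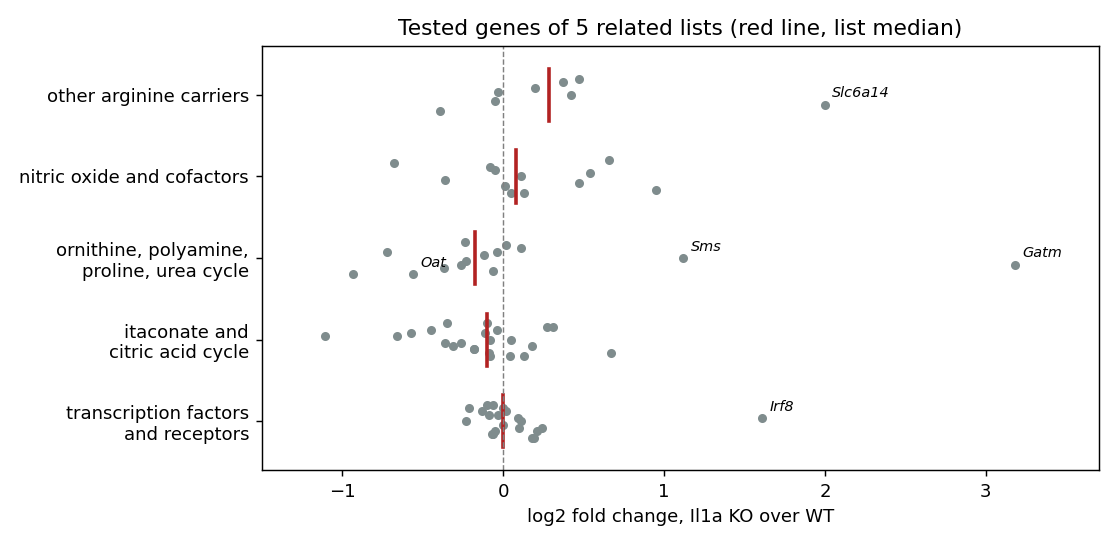
Log2 fold change, Il1a KO over WT, of each tested gene (points; vertical scatter within a list only separates points) in the 5 related lists, with the list median as a red line. Medians lie between -0.17 and 0.28, and Gatm (3.18), Slc6a14 (2.00) and Irf8 (1.61) lie farthest to the right.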

How the data were processed

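Libraries were made with a SMART-Seq v4 low-input kit, per the labels' protocols; it keeps no strand information. FastQC 0.11.9, Trimmomatic 0.39, STAR 2.7.8a and GRCm38 (mm10) are named in the submitters' processing notes, with no annotation release. The deposited values are whole-number counts of each gene, in 1 unstranded column, used here, and 2 strand columns. GENCODE M21, which may not be the authors' release, gave symbols, positions and exon lengths for 54809 of 54838 genes.

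edgeR's default filter kept 11924 genes with 99.9% of the counts. Counts were normalized by TMM and tested, Il1a KO against WT, with edgeR 4.0.16 (robust quasi-likelihood test, R 4.3.3) without a term for the replicate number, and p-values were adjusted over all tested genes by the Benjamini-Hochberg method (threshold 0.05). A prior count of 3 went into log2 CPM, and intervals are 95%. The procedure was tested on simulated data. Exact permutation of 3 against 3 libraries gives no p below 0.1, so it was not used. Reads carried no molecular tags, and genes with few counts are less certain.

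The members, lists and markers were chosen with earlier results of these data known. The rule for other genes named the 3 tested genes with the smallest p in each pathway list, every called gene, the 3 most abundant markers per list and the 3 nearest profiles of the 2 most variable members. Alternatives were DESeq2 1.42.0, limma-voom (limma 3.58.1), other scalings and filters, the strand columns, a replicate term and each library left out. The list counts and the fits of the other named genes under each alternative were added after the data were seen.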

Additional observations from a re-analysis of the deposited data

How the results depend on the processing

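The number of genes called was 12 in the main test, 185 without a filter, 21 with a filter at 5 CPM in 3 libraries, 20 with a replicate block, 70 by DESeq2 and 7 to 24 with a library left out; the cause was not tested. Acod1 changed sign among the fits with a library left out (log2 fold change -0.06 to 0.10), as did Asl (-0.22 to 0.16) and Slc6a14 (-1.62 to 2.54), and Asl was at 0.01 when scaled by library size alone. Arg1 became called without a filter (2.11) and with a replicate block (2.03, adjusted p = 0.00095), and ranged from 1.25 to 2.82 with a library left out. Slc6a14 became called without a filter (1.98) and was at 0.44 with the replicate block. Gatm became called without a filter, by DESeq2 and with the replicate block (3.31, adjusted p = 0.047). For Nos2 (0.35 to 0.62), Arg2 (-0.17 to -0.06), Slc7a1 (0.03 to 0.53) and Ass1 (1.09 to 2.01) direction and call held in every alternative run, and Slc7a2 (1.99 to 2.87), given without a test, kept its direction. Slc7a1, Slc7a2 and Ass1 were not kept by the filter at 5 CPM. Scaling by library size alone moved the median of all genes by 0.056 on the log2 scale. Nothing in the labels pairs the replicate numbers, and deviations of same-numbered libraries correlated at 0.14, 0.057 and 0.0034, so the replicate block is an alternative only; Il1a KO replicate 2 correlated best with WT replicate 3 (0.145). Ass1, Slc7a1, Slc7a2, Gatm and Irf8 rest on few counts, which limits their precision.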

Other observations

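Ratios between members within a library, chosen after their values were seen, are given per kb of unshared exon and without a test. Nos2 over Arg1 was 6.74, 1.29 and 3.44 in Il1a KO, against 16.9, 4.72 and 8.18 in WT, so the groups overlapped although Nos2 itself was higher in every Il1a KO library. Slc7a2 over Slc7a1 was 4.92, 15.04 and 7.18 in Il1a KO, against 2.44, 1.66 and 2.01 in WT, without overlap. Slc7a2 was picked for its rise in these same libraries, so the separation of this ratio follows largely from that choice. Acod1 over Nos2 was 58.6, 65.3 and 77.3 in Il1a KO, against 72.4, 86.7 and 134 in WT, so the groups overlapped.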
